A study of Homo sapiens with 6 samples.

Results

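The genes described here are 37 members of the autophagy machinery, its cargo receptors and the transcription factors that act on it, measured in PC-3 cells. They were selected by gene symbol as a known pathway, with no threshold on a measured value but with earlier results of these data known, and all 37 were found among the 19491 genes listed in the deposited tables. PC-3 is an established human prostate cancer line grown as a monolayer in medium with fetal bovine serum. The cells were left untreated (control) or received GPNA at 1 mM or BenSer at 10 mM for 48 h. The paper calls the control untreated, while its culture methods say in general that control wells received vehicle, which was water for these compounds. Both compounds are inhibitors of ASCT2, a transporter that brings glutamine and other neutral amino acids into the cell. Per the paper, BenSer also lowered leucine uptake and appears to have effects beyond ASCT2. In earlier work on oocytes it inhibited both ASCT2 and the leucine transporter LAT1. The part of such effects in the results was not tested. Total RNA was sequenced from 6 libraries, 2 for each group. The libraries held 23077986 to 32178154 reads, with the BenSer libraries the deepest, and 51.57% to 52.73% of the reads fell on the listed genes.

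The values are CPM, the reads of a gene scaled to 1e6 reads of the library. The paired library columns of each group were alike almost to within sampling noise (a chi-square statistic of 1.045 to 1.064 per degree of freedom, against 5.502 to 20.716 for columns of different groups). The paper's methods speak of replicates and of replicate experiments in general, but do not tie these columns to separate cultures, nor do the labels, so each group was counted as 1 sample and no p-value for a treatment is given. Folds are ratios of the mean CPM of the pair of columns, with an exact (Clopper-Pearson) 95% interval on the merged reads that covers counting error only. A gene was called higher or lower when the difference in log2(CPM + 1) reached 1.2-fold (0.263 on that scale), among genes that averaged 5 or more reads in the control or the treated group, and all 37 members passed this filter in both comparisons. The doses of the compounds differ and both are set against the same control, so their values are given side by side and not compared with each other. In RNA from a whole culture, fewer cells with a transcript and less of it per cell cannot be told apart.

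The 7 epithelial and mesenchymal markers chosen for the line (KRT8, KRT18, KRT19, EPCAM, CDH1, VIM and CAV1) were all present in every column, from 85.59 CPM for CDH1 to 780.6 CPM for KRT19. Their CPM ratios to the control ran from 0.8 (CAV1) to 1.07 (KRT19) with GPNA. With BenSer they ran from 0.682 (CAV1) and 0.768 (VIM) to 1.41 (CDH1), and the part of these differences in the results on the autophagy genes was not tested. Of 8 markers of immune, endothelial and stromal cells, COL1A1 alone was listed, at 6.07 and 5.07 CPM in control cells, 3.80 and 3.65 CPM after GPNA and 3.85 and 5.07 CPM after BenSer. Its CPM ratio was 0.669 (0.552 to 0.81) with GPNA and 0.801 (0.674 to 0.951) with BenSer, and its part in the results was not tested.

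Macroautophagy delivers cytoplasm to the lysosome in a vesicle with a double membrane. The ULK kinase complex starts the process and a phosphatidylinositol 3-kinase complex marks the membrane with PI3P. WIPI proteins bind that lipid, ATG2 and ATG9 supply further lipid, and paired conjugation systems attach ubiquitin-like proteins of the ATG8 family to the growing membrane. Receptors such as SQSTM1 hold cargo and ATG8 proteins at once and are degraded with the cargo. The pathway is known for its response to amino acid shortage, when lower mTORC1 activity releases the ULK complex and allows TFEB and TFE3 to enter the nucleus. Messenger RNA levels do not measure the flux through the pathway.

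Promoter sequences are shown for the 4 members furthest from the control with BenSer among those above 5 CPM in the control, and for ATG14, which was added after the search because it holds a TFEB-type motif. The windows are the 250 bases before 1 RefSeq start site of each gene in GRCh38.p14 (SQSTM1 has 3 in the table, and the one that matches its canonical transcript was taken), printed 5′ to 3′ on the strand of the gene, and capitals mark motifs found on either strand. WIPI1 lies on the minus strand with its window at chr17:68457497-68457746, SQSTM1 on the plus strand at chr5:179820655-179820904, GABARAPL1 on the plus strand at chr12:10212627-10212876, ULK1 on the plus strand at chr12:131894372-131894621 and ATG14 on the minus strand at chr14:55411831-55412080.
WIPI1: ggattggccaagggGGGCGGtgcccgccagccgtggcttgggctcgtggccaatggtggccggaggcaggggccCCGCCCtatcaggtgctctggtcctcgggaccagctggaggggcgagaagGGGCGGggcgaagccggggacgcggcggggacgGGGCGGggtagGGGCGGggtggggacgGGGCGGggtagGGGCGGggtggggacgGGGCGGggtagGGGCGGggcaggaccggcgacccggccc
SQSTM1: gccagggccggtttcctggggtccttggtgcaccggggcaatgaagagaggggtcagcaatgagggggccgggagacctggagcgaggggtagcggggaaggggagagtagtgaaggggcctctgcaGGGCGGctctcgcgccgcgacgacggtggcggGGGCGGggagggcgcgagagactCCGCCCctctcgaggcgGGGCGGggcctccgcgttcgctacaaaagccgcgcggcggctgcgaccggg
GABARAPL1: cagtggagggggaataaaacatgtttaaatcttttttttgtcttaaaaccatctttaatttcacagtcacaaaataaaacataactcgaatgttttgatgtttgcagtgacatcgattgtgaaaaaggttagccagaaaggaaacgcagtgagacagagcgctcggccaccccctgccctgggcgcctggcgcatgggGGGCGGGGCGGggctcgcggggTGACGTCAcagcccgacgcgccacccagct
ULK1: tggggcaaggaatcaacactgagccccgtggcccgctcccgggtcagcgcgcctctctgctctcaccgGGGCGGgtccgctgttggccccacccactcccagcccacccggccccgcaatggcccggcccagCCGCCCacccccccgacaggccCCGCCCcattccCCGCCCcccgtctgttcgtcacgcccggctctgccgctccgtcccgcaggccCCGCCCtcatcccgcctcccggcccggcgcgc
ATG14: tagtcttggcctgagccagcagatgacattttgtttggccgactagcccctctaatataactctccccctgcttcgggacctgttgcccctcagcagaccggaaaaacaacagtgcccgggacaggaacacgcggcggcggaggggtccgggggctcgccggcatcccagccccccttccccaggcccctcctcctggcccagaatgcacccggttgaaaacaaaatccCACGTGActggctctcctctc

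The motifs searched on both strands were the E-box CACGTG, the longer TFEB-type form TCACGTG that contains it, the ATF4-type form TGATGNAA, the GC box GGGCGG and the cyclic AMP response element TGACGTCA; the GC box and the cyclic AMP response element were added after the windows had been read. In the 250 bases shown, WIPI1 held 9 GC boxes, ULK1 5, SQSTM1 4 and GABARAPL1 2, and of 35116 RefSeq windows of that length 0.285% held 9 or more, 4.15% 5 or more, 7.63% 4 or more and 24.3% 2 or more. The WIPI1 boxes closest to the start site on the upstream side began at positions -93, -82, -66, -55, -39 and -28 from it. GABARAPL1 also held TGACGTCA, and ATG14 held TCACGTG on the opposite strand, printed as CACGTGA, from position -21. Over windows of 300 bases, which run 50 bases past the start site, 32 of the 37 members could be matched. CACGTG was found in ATG3, ATG14 and ULK3 (3 of 32, against 7.26% of all 35116 windows), TCACGTG in ATG3 and ATG14 (2 of 32, against 3.71%), TGATGNAA in 0 of 32 (3.62%), the GC box in 23 of 32 (45.0%) and TGACGTCA in GABARAPL1 alone (1 of 32, against 1.85%). A match is a description of the letters in these windows and not evidence of binding.

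With BenSer, 11 of the 37 members were called higher than the control and 0 were called lower. They were WIPI1, SQSTM1, GABARAPL1, ULK1, ULK2, ATG14, OPTN, RB1CC1, UVRAG, ATG9A and MAP1LC3A. Of all 18976 genes tested, 10.4% were called higher and 15.0% lower. At 1.5-fold the members called higher were WIPI1 and SQSTM1 (2 of 37), against 1.96% of all genes. At a pseudocount of 0.1 the 1.5-fold count was 3 of 37, against 6.35% of all genes. The median difference in log2(CPM + 1) was 0.156 for the members and -0.028 for all genes tested, and 27 of 37 members lay above 0 against 44.6% of all genes. Both BenSer columns lay above both control columns for 25 members and below them for 6 members (28.5% and 37.5% of all genes).

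With GPNA, 1 of the 37 members, WIPI1, was called higher and 0 were called lower, where 5.18% of all 18828 genes tested were called higher and 5.86% lower. The members called higher numbered 5 without control column 2 and 4 without GPNA column 1 (6.7% and 6.46% of all genes). The members called lower numbered 1 without control column 1 and 1 without GPNA column 2 (7.52% and 7.68%). No member reached 1.5-fold on the log2(CPM + 1) scale, against 0.34% of all genes. The median difference was 0.038 for the members and -0.028 for all genes. It was 0.017 without GPNA column 1, 0.025 without control column 2, 0.064 without control column 1 and 0.074 under TMM scaling, where the median of all genes was 0.002. The members ran from -0.237 for TFEB to 0.576 for WIPI1. Both GPNA columns lay above both control columns for 14 members and below them for 9 members, where the shares of all genes were 22.4% and 34.4%.

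Because low genes have wider counting error, the same counts were taken for genes that averaged 5 CPM or more, of which 32 were members. With BenSer, 10 of 32 members were called higher and 0 lower, against 11.8% and 18.5% of 9935 genes. With GPNA, 1 of 32 was called higher and 0 lower, against 3.29% and 5.63%. Scaling by the trimmed mean of M values (TMM) instead of the library total changed the split among the called genes of the whole table, from 40.9% higher to 51.6% higher with BenSer and from 46.9% to 60.8% with GPNA. Under that scaling 12 members were called higher with BenSer, where 12.9% of all genes were called higher and 12.1% lower. With GPNA 3 members were called higher under it (WIPI1, ATG16L1 and ATG16L2), a share near the 6.38% of all genes called higher (4.11% lower), and 0 members were called lower with either compound.

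**Figure D1:**
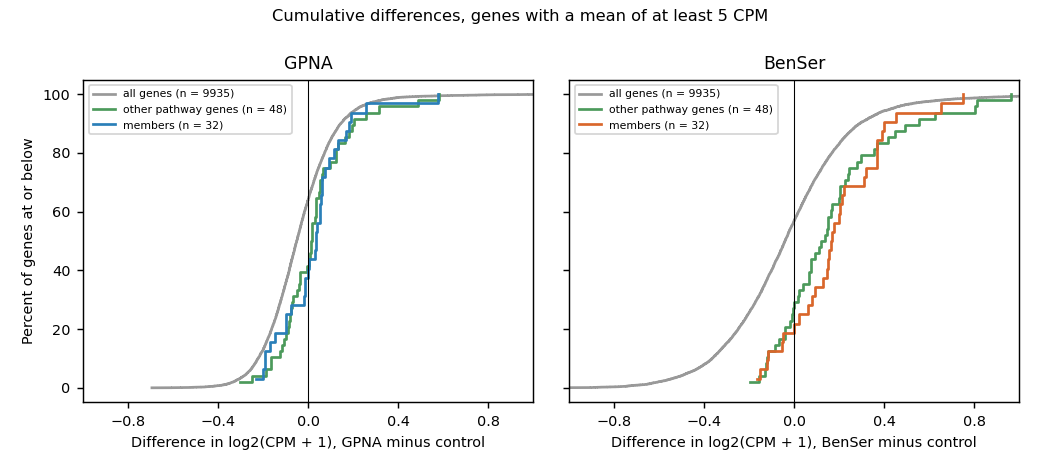
Cumulative percent of genes (vertical axis) at or below each difference in log2(CPM + 1) from the control (horizontal axis), for GPNA (left) and BenSer (right), among genes averaging 5 CPM or more; genes beyond the axis limits are not drawn. Grey lines are all 9935 genes, green lines 48 other pathway genes and coloured lines 32 members, and the BenSer lines of both gene lists lie to the right of the line of all genes over most of their range.

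**Figure D2:**
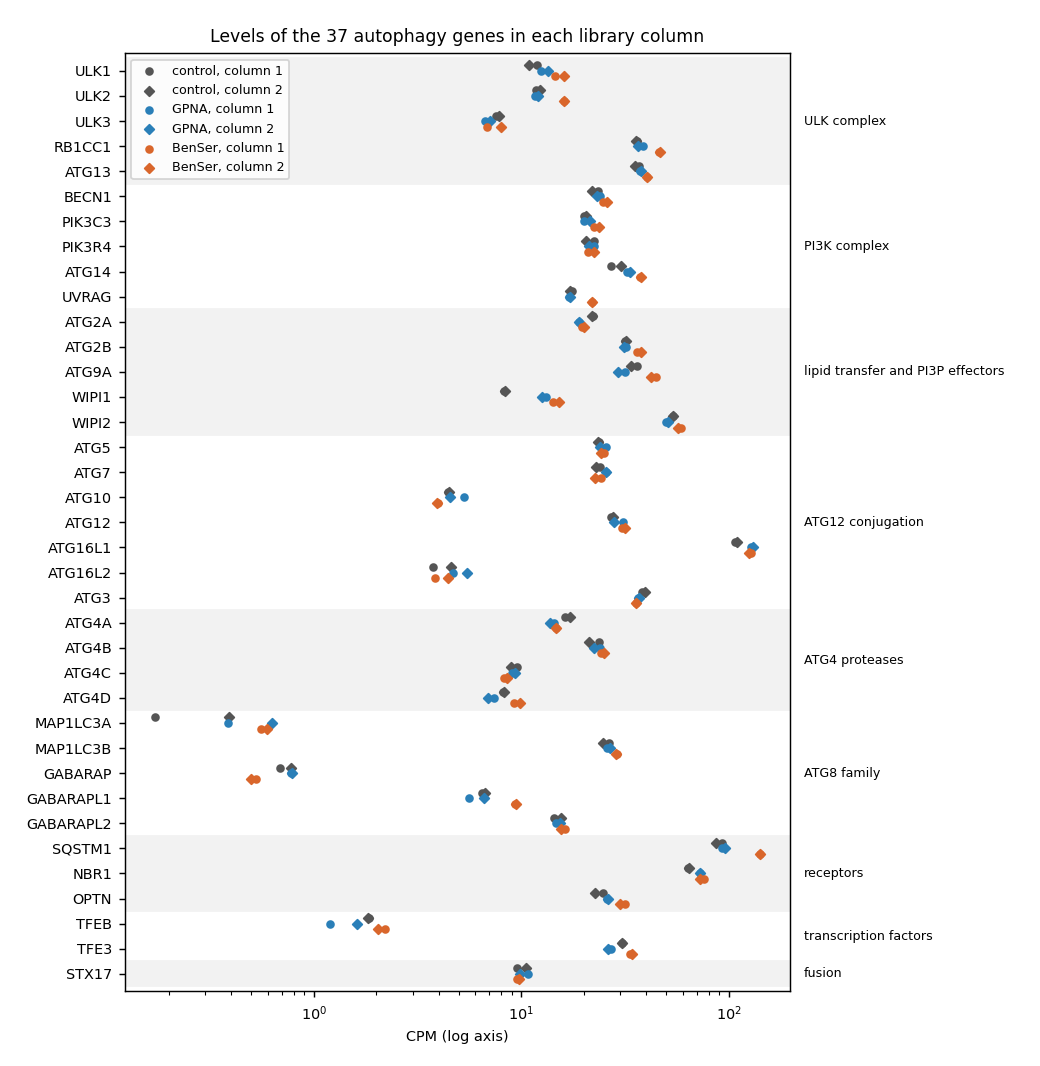
CPM on a log axis for each of the 37 members, by role, in each library column; grey is the control, blue GPNA and orange BenSer, circles are column 1 and diamonds column 2. The columns of a group lie close together for most genes, while MAP1LC3A and GABARAP lie below 1 CPM in every column.

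In the control, 21 members lay above 20 CPM, 14 between 1 and 20 CPM and 2 (MAP1LC3A and GABARAP) under 1 CPM. Divided by the length of the canonical transcript, the highest levels were those of ATG16L1 at 32.8 CPM per kb, SQSTM1 at 31.5 and ATG3 at 24.7 CPM per kb. The lowest were MAP1LC3A at 0.292, GABARAP at 0.557 and TFEB at 0.787 CPM per kb. Other annotated genes cover 68.2% of the exonic length of GABARAP, 52.4% on the same strand, so its place in this order is uncertain. The sum over all 37 was 922.7 and 913.1 CPM in the control columns, 956.4 and 955.1 CPM in the GPNA columns and 1080 CPM in each BenSer column.

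**Figure D3:**
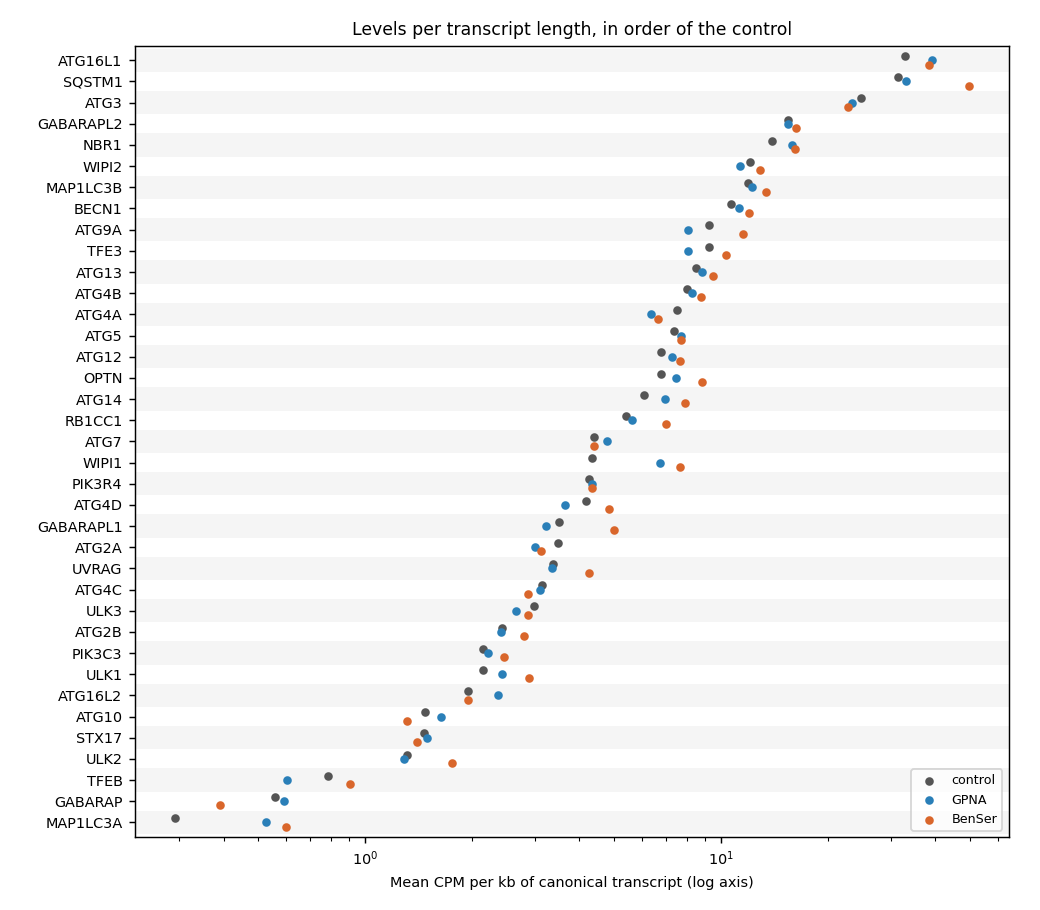
Mean CPM per kb of canonical transcript, on a log axis, for the 37 members in order of their control level; grey points are the control, blue GPNA and orange BenSer. ATG16L1, SQSTM1 and ATG3 lie at the top and TFEB, GABARAP and MAP1LC3A at the bottom in the control. The level of GABARAP is uncertain, as other annotated genes overlap its exons.

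The ULK complex holds the protein kinases and scaffolds that start autophagosome formation. ULK1, the kinase that mTORC1 and AMPK both phosphorylate, was at 11.9 and 10.8 CPM in control cells, 12.4 and 13.4 CPM after GPNA and 14.5 and 16.1 CPM with BenSer. The columns of the treated groups lay above those of the control in both comparisons, with a fold of 1.13 (1.01 to 1.27) for GPNA and 1.35 (1.21 to 1.5) for BenSer. ULK2, its close relative, was at 11.7 and 12.3 CPM in control cells, 11.67 and 12.02 CPM after GPNA and 16.07 and 16.03 CPM with BenSer. GPNA and control columns overlapped, whereas the BenSer columns were higher, at a fold of 1.34 (1.2 to 1.48).

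RB1CC1, the scaffold also called FIP200, was at 36.0 and 35.6 CPM in control cells, 38.6 and 36.3 CPM after GPNA and 46.2 and 46.7 CPM with BenSer. Its fold was 1.05 (0.979 to 1.12) with GPNA and 1.3 (1.22 to 1.38) with BenSer, which was thus higher than the control by more than counting error. ATG13, the adaptor between kinase and scaffold, was not called in either comparison, with a fold of 1.04 (0.971 to 1.11) for GPNA and 1.11 (1.05 to 1.18) for BenSer. ULK3, a relative also known for its part in Hedgehog signalling, had folds of 0.891 (0.767 to 1.04) and 0.959 (0.834 to 1.1), both within counting error of the control.

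In the phosphatidylinositol 3-kinase complex, ATG14 and UVRAG (2 of 5 members) were called higher with BenSer, against 10.4% of all genes. All 5 differences lay above 0, against 44.6% of all genes, but that of PIK3R4, at 0.022, ran from -0.038 to 0.084 with single columns left out. ATG14, the subunit that directs the kinase to autophagosome formation, was at 27.1 and 30.3 CPM in control cells, 32.3 and 33.5 CPM after GPNA and 37.2 and 37.5 CPM with BenSer. All treated columns lay above the control columns, and the fold was 1.15 (1.07 to 1.23) with GPNA and 1.3 (1.22 to 1.39) with BenSer. FBXO34 on the other strand shares 22.2% of the exonic length of ATG14 and was itself at 38.4 to 42.8 CPM, with differences in log2(CPM + 1) of -0.06 with GPNA and 0.002 with BenSer. UVRAG, which takes the place of ATG14 in the complex that acts on endosomes, was at 17.5 and 17.2 CPM in control cells, 17.1 and 17.2 CPM after GPNA and 21.8 and 21.9 CPM with BenSer. GPNA columns overlapped those of the control, and the BenSer fold was 1.26 (1.15 to 1.38).

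The other subunits were not called. BECN1, the scaffold known as Beclin 1, had a fold of 1.04 (0.959 to 1.13) with GPNA and 1.12 (1.03 to 1.21) with BenSer. CNTD1 on the other strand shares 37.7% of its exonic length and was at 0.118 to 0.78 CPM. PIK3C3, the lipid kinase itself, had folds of 1.03 (0.94 to 1.12) and 1.14 (1.05 to 1.23), and PIK3R4, its regulatory subunit, 1.02 (0.937 to 1.11) and 1.02 (0.935 to 1.1).

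WIPI1, which binds PI3P on the forming membrane, had the highest difference of the 37 members in log2(CPM + 1) in both comparisons, although MAP1LC3A, with few reads, had the higher CPM ratio and ranked first at a pseudocount of 0.1. It was at 8.27 and 8.32 CPM in control cells, 13.1 and 12.6 CPM after GPNA and 14.1 and 15.2 CPM with BenSer. No treated column came near the control columns, and the fold was 1.55 (1.37 to 1.76) with GPNA and 1.77 (1.57 to 1.99) with BenSer, on 384, 659 and 939 merged reads. In GRCh37, WIPI1 lies on the minus strand of chromosome 17 (66417089 to 66453654), and 28.3% of its exonic length is shared with ARSG on the other strand. ARSG itself was at 1.12 and 1.21 CPM in control cells, 1.12 and 1.38 CPM after GPNA and 1.68 and 1.31 CPM with BenSer. The libraries were stranded, but whether the counting used strand is not given in the sources used here.

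WIPI2, the relative that recruits ATG16L1, was not called, with a fold of 0.934 (0.883 to 0.987) for GPNA and 1.07 (1.02 to 1.12) for BenSer. ATG9A, the lipid scramblase carried on vesicles to the forming membrane, was at 36.1 and 33.7 CPM in control cells, 31.5 and 29.3 CPM after GPNA and 44.8 and 42.3 CPM with BenSer. Its GPNA columns lay below the control columns at a fold of 0.871 (0.812 to 0.934), and its BenSer columns lay above them at 1.25 (1.17 to 1.33). Another annotated gene on the same strand covers 48.6% of the exonic length of ATG9A, so its level is uncertain where the counting could split reads. ATG2A and ATG2B, the bridge proteins that carry lipid, were on opposite sides of the control with BenSer, at folds of 0.896 (0.825 to 0.974) for ATG2A and 1.16 (1.08 to 1.24) for ATG2B. With GPNA they were at 0.864 (0.79 to 0.944) and 0.998 (0.929 to 1.07).

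**Figure D4:**
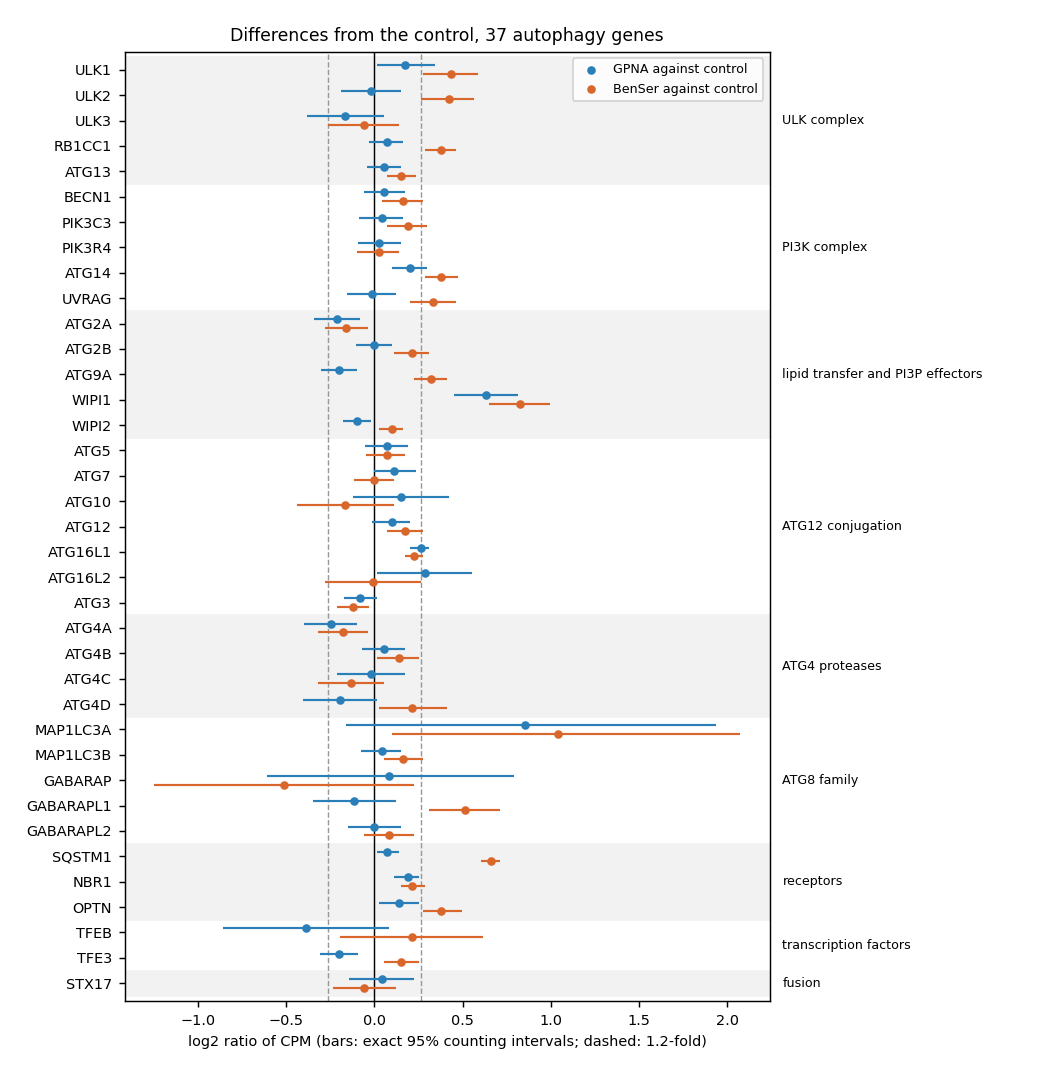
Log2 ratio of CPM to the control (horizontal axis) for the 37 members by role, for GPNA (blue) and BenSer (orange); bars are exact 95% intervals on merged reads for counting error and dashed lines mark a CPM ratio of 1.2, whereas calls were made on log2(CPM + 1). WIPI1 and MAP1LC3A lie to the right of the dashed line with both compounds, ATG16L2 with GPNA, and SQSTM1, GABARAPL1, ULK1, ULK2, RB1CC1, ATG14, OPTN, UVRAG and ATG9A with BenSer; TFEB with GPNA and GABARAP with BenSer lie to the left of the other dashed line, and the widest bars are those of MAP1LC3A and GABARAP.

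The conjugation enzymes attach ATG12 to ATG5 and ATG8 proteins to lipid, and 0 of these 7 members were called in either comparison, a count near what the shares of all genes would give (10.4% higher and 15.0% lower with BenSer, 5.18% and 5.86% with GPNA). ATG16L1, which places the ATG12-ATG5 conjugate on the membrane, was at 107.2 and 108.8 CPM in control cells, 128.0 and 130.6 CPM after GPNA and 127.9 and 124.6 CPM with BenSer. Its treated columns all lay above the control columns, and at a fold of 1.2 (1.15 to 1.24) with GPNA and 1.17 (1.13 to 1.21) with BenSer it stood just under the threshold on the log2(CPM + 1) scale, with differences of 0.257 and 0.223. Under TMM scaling both differences passed the threshold, at 0.297 and 0.269. ATG16L2, its less studied relative, was much lower, at 3.75 and 4.59 CPM in control cells, 4.69 and 5.46 CPM after GPNA and 3.85 and 4.45 CPM with BenSer. Its folds were 1.22 (1.01 to 1.47) and 0.995 (0.824 to 1.2).

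ATG7, the E1-like enzyme of both systems, had a fold of 1.08 (1.0 to 1.18) with GPNA and 1.0 (0.924 to 1.08) with BenSer. VGLL4 on the other strand shares 29.9% of its exonic length and was at 23.7 to 28.3 CPM, with differences of -0.039 and 0.139. The folds of ATG5 were 1.05 (0.965 to 1.14) and 1.05 (0.967 to 1.13), and those of ATG12, the ubiquitin-like protein joined to it, 1.07 (0.99 to 1.15) and 1.13 (1.05 to 1.21). Of the E2-like enzymes, ATG3, which acts on ATG8 proteins, stood at 0.947 (0.887 to 1.01) and 0.919 (0.864 to 0.979), and ATG10, which acts on ATG12, at 1.11 (0.92 to 1.34) and 0.89 (0.738 to 1.08). Their folds lay within 1.2-fold of the control, although the intervals of ATG10 and of ATG12 with BenSer reached past it.

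The ATG4 proteases trim ATG8 proteins before conjugation and release them from lipid afterwards, and 0 of 4 were called, which is likewise near the shares of all genes. ATG4A was at 16.2 and 17.1 CPM in control cells, 14.3 and 13.7 CPM after GPNA and 14.7 CPM in each BenSer column. Its treated columns lay below the control columns, with a fold of 0.842 (0.76 to 0.934) for GPNA and 0.884 (0.803 to 0.974) for BenSer. ATG4B, the family member with the broadest activity, had folds of 1.04 (0.954 to 1.13) and 1.1 (1.01 to 1.19), ATG4C 0.988 (0.865 to 1.13) and 0.911 (0.801 to 1.04), and ATG4D 0.875 (0.756 to 1.01) and 1.16 (1.02 to 1.33). KRI1 on the other strand shares part of the exonic length of ATG4D. KRI1 was at 45.4 to 59.7 CPM, against 6.92 to 9.83 CPM for ATG4D. Its differences in log2(CPM + 1) were -0.289 with GPNA and -0.264 with BenSer. The part of this overlap in the ATG4D values was not tested.

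Among the ATG8 family, whose proteins coat the autophagosome and bind receptors, GABARAPL1 was the member called with BenSer on more than 37 merged reads. It was at 6.501 and 6.673 CPM in control cells, 5.58 and 6.6 CPM after GPNA and 9.35 and 9.42 CPM with BenSer. GPNA and control columns overlapped at a fold of 0.924 (0.787 to 1.09), and the BenSer columns lay above both at 1.43 (1.24 to 1.64). MAP1LC3B, which encodes the LC3 protein most often used as an autophagosome marker, was at 26.4 and 24.7 CPM in control cells, 25.8 and 26.6 CPM after GPNA and 28.8 and 28.6 CPM with BenSer. Its folds of 1.03 (0.949 to 1.11) and 1.12 (1.04 to 1.21) were under the threshold, as were those of GABARAPL2, at 1.0 (0.902 to 1.11) and 1.06 (0.962 to 1.17).

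MAP1LC3A and GABARAP rest on few reads. MAP1LC3A was at 0.172 and 0.390 CPM in control cells, 0.388 and 0.629 CPM after GPNA and 0.559 and 0.595 CPM with BenSer, from 13, 26 and 37 merged reads. Its fold of 2.06 with BenSer had an interval of 1.07 to 4.21, and without control column 1 its difference of 0.300 in log2(CPM + 1) became 0.182 and was no longer called. GABARAP was at 0.689 and 0.780 CPM in control cells, 0.775 and 0.786 CPM after GPNA and 0.528 and 0.501 CPM with BenSer, and its BenSer fold of 0.701 had an interval of 0.421 to 1.17. Other annotated genes cover 68.2% of its exonic length, 52.4% on the same strand, so its level is uncertain.

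SQSTM1, OPTN and NBR1, the cargo receptors among the members, were above the control in all treated columns, and OPTN and SQSTM1 were called with BenSer (2 of 3, against 10.4% of all genes). Of 13 further receptors outside the 37 genes, 0 were called higher with GPNA and 3 with BenSer, against 5.18% and 10.4% of all genes. Both treated columns lay above both control columns for 8 of the 13 with GPNA and 9 with BenSer, against 22.4% and 28.5% of all genes. They lay below for 2 with GPNA (SEC62 and TOLLIP) and 2 with BenSer (SEC62 and FUNDC1), against 34.4% and 37.5%. SQSTM1, the receptor for ubiquitinated cargo, was at 92.2 and 86.8 CPM in control cells, 92.8 and 95.6 CPM after GPNA and 141.3 CPM in each BenSer column. The GPNA fold was 1.05 (1.01 to 1.1) and the BenSer fold 1.58 (1.52 to 1.64), on 4143 control and 9062 BenSer reads. SQSTM1 lies on the plus strand of chromosome 5 in GRCh37 (179233398 to 179265078), and 55.7% of its exonic length is shared with MRNIP on the other strand. No level of MRNIP is given here, and the part of this overlap in the SQSTM1 values was not tested.

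OPTN, a receptor known for the removal of mitochondria and bacteria, was at 24.7 and 22.6 CPM in control cells, 25.9 and 26.2 CPM after GPNA and 31.7 and 30.0 CPM with BenSer. Its fold was 1.1 (1.02 to 1.19) with GPNA and 1.3 (1.21 to 1.41) with BenSer. NBR1, which works beside SQSTM1 on protein aggregates, was at 63.6 and 64.3 CPM in control cells, 72.9 and 72.5 CPM after GPNA and 75.6 and 72.9 CPM with BenSer, and its folds of 1.14 (1.08 to 1.19) and 1.16 (1.11 to 1.22) were not called. Summed over SQSTM1, OPTN and NBR1, the log2 ratio of CPM to the control was 0.124 with GPNA and 0.477 with BenSer.

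TFEB and TFE3, transcription factors that activate lysosomal and autophagy genes once dephosphorylated, were not called. TFE3 was at 30.4 and 30.5 CPM in control cells, 26.9 and 26.1 CPM after GPNA and 33.5 and 34.1 CPM with BenSer. Its GPNA columns lay below the control columns at a fold of 0.871 (0.808 to 0.939) and its BenSer columns above them at 1.11 (1.04 to 1.19). TFEB, at 1.85 and 1.82 CPM in control cells, 1.202 and 1.611 CPM after GPNA and 2.21 and 2.04 CPM with BenSer, had intervals that included 1 in both comparisons (0.551 to 1.06 and 0.875 to 1.53). Their activity depends on where the proteins reside, which messenger RNA does not show. STX17, the syntaxin that fuses the closed autophagosome with the lysosome, had folds of 1.03 (0.904 to 1.17) and 0.962 (0.851 to 1.09).

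Further genes of the pathway were listed by role from general knowledge, and 54 of 56 were found in the tables. With BenSer, 14 of the 54 were called higher and 0 lower, against 10.4% and 15.0% of all genes, and their median difference was 0.116. At 1.5-fold, 4 were called higher with BenSer, against 1.96% of all genes. By columns, 16 of the 54 lay above the control and 17 below with GPNA (22.4% and 34.4% of all genes). With BenSer, 32 lay above and 7 below (28.5% and 37.5%). TP53INP1, which binds ATG8 proteins, was at 7.23 and 8.23 CPM in control cells and at 10.8 and 11.7 CPM after GPNA. With BenSer it was at 16.3 and 15.8 CPM. Its folds were 1.45 (1.27 to 1.66) with GPNA and 2.08 (1.84 to 2.35) with BenSer. VMP1, a membrane protein of the endoplasmic reticulum needed for autophagosome formation, was at 120.8 and 117.5 CPM in control cells, 137.6 and 135.3 CPM after GPNA and 211.4 and 205.6 CPM with BenSer, at folds of 1.14 (1.11 to 1.19) and 1.75 (1.7 to 1.81). All treated columns of both genes lay above those of the control.

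CCPG1, a receptor for fragments of the endoplasmic reticulum, was at 3.88 and 3.86 CPM in control cells, 5.04 and 4.60 CPM after GPNA and 7.09 and 5.95 CPM with BenSer, with a BenSer fold of 1.69 (1.41 to 2.02). DDIT3, which encodes the stress factor CHOP, was at 5.60 and 5.72 CPM in control cells, 9.26 and 8.68 CPM after GPNA and 11.1 and 10.3 CPM with BenSer, at folds of 1.59 (1.36 to 1.85) and 1.89 (1.64 to 2.19). ATF4, the factor of the integrated stress response that acts upstream of DDIT3, was at 112.0 and 112.3 CPM in control cells, 140.7 and 138.6 CPM after GPNA and 166.0 and 164.4 CPM with BenSer, at folds of 1.25 (1.2 to 1.29) and 1.47 (1.42 to 1.52). With GPNA, 4 of the 54 were called higher, namely ATF4, DDIT3, TP53INP1 and WDR45, and 2 were called lower, namely VPS18 and TP53INP2. These shares stood against 5.18% and 5.86% of all genes, and the median of the 54 was 0.015; WDR45, VPS18 and TP53INP2 are named here because they were called, and were chosen after their values were seen.

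**Figure D5:**
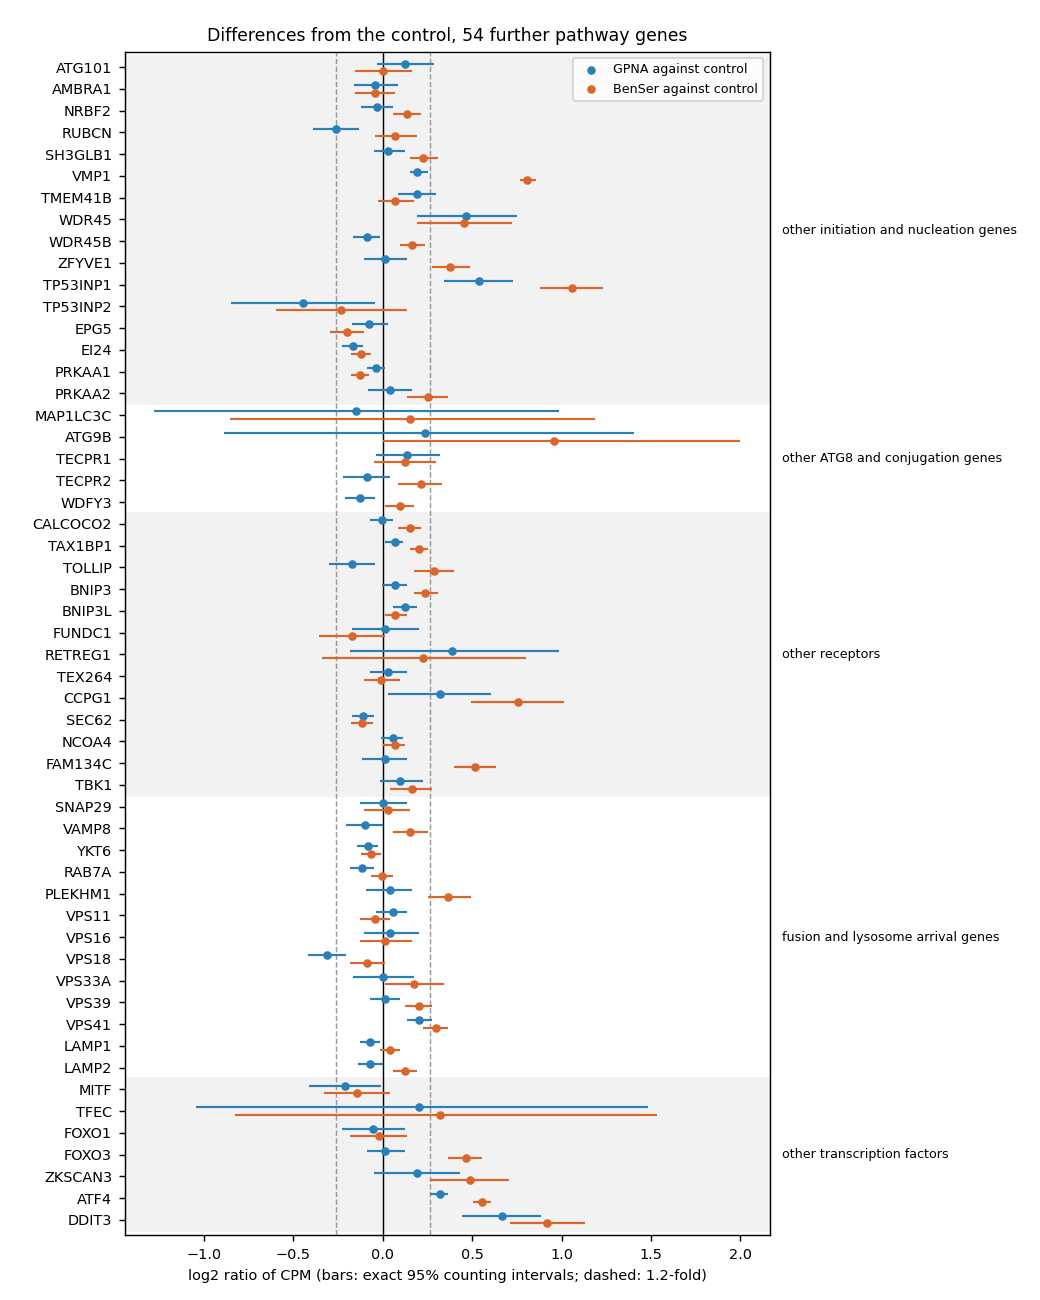
Log2 ratio of CPM to the control (horizontal axis) for 54 further pathway genes by list, for GPNA (blue) and BenSer (orange), with exact 95% intervals for counting error and dashed lines at a CPM ratio of 1.2. TP53INP1, DDIT3 and VMP1 lie furthest to the right for BenSer, apart from ATG9B with its wide bar, and the widest bars belong to genes with few reads.

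Autophagy genes can also be grouped by factors known to act on their promoters, again from general knowledge; the lists also hold ATG9B, VPS11, VPS18 and BNIP3, which are not among the 37. Their counts stand against 10.4% of all genes called higher with BenSer and 5.18% higher and 5.86% lower with GPNA. Of 12 autophagy genes known as targets of ATF4 or CHOP, 1 (SQSTM1) was called higher with BenSer and 0 with GPNA, with medians of 0.118 and 0.068. By columns, 7 of the 12 lay above the control with BenSer and 3 below (28.5% and 37.5% of all genes), and 7 above and 1 below with GPNA (22.4% and 34.4%). Of 7 known TFEB targets, 4 were called higher with BenSer (WIPI1, SQSTM1, UVRAG and ATG9B, a gene of few reads), and with GPNA 1 was called higher (WIPI1) and 1 lower (VPS18). Their medians were 0.271 with BenSer and 0.051 with GPNA, and by columns 5 lay above and 0 below with BenSer, and 2 above and 1 below with GPNA. Of 5 known FOXO targets, 2 (GABARAPL1 and ULK2) were called higher with BenSer and 0 with GPNA. Their medians were 0.241 and 0.038, and by columns 5 of 5 lay above the control with BenSer, and 2 above and 0 below with GPNA. The lists overlap and are short, and whether any of these factors acted in these cells was not tested.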

How the data were processed

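Per the paper and the labels, PC-3 RNA was made into stranded total RNA libraries, and the authors mapped trimmed read pairs with TopHat2 to the hg19 (GRCh37.p13) genome and counted them per gene (HTSeq 0.6.2p2 is listed in the submitters' notes). The authors deposited 2 tables whose value columns are named as counts but hold CPM, reads scaled to 1e6 reads of the library total. All values (100%) were whole reads within 0.05 reads, so reads were recovered. Per the paper's methods, 4 replicates per group were compared, and the tables hold 4 columns per group. Only columns 1 and 2 of each group match the labels; 8 of 16 value column entries (6 distinct columns) match no label by name and were left unused. The deposited fold changes, p-values and false discovery rates of the authors' comparisons were not used.

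The members and gene lists were chosen with earlier results of these data known, and so were the fold thresholds. Columns 1 and 2 were compared by chi-square across genes holding 20 or more reads. Differences are of log2(mean CPM + 1). All members are named; other pathway genes are named if past 1.5-fold with at least 100 merged reads, plus ATF4 and DDIT3. A few others (WDR45, VPS18, TP53INP2, ATG9B, SEC62, TOLLIP, FUNDC1) are named because a small count includes them, after their values were seen. VPS11 and BNIP3 are named because the lists of known targets hold them. Where a member had several promoter windows, that matching the start of its canonical transcript was used, so motif counts hold for 1 start site. Lengths, coordinates and exon overlaps come from GENCODE lifted to GRCh37 (18931 of 19491 genes matched).

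The test planned for counts was edgeR. As the tables hold CPM, limma on log2(CPM + 1) was fitted with columns entered as 2 libraries per group, and it compares libraries and not treatments. It was first fitted without a mean-variance trend, as planned. A trended fit was added after those counts had been seen to be lower than in earlier work and to recover fewer of the changed genes in simulated data, so it is given as an alternative. Scripts were tested on simulated data. As alternatives, the pseudocount, filter, scaling and test were varied, single columns were left out and a replicate block was fitted. Tools were R 4.3.3, limma 3.58.1, edgeR 4.0.16, DESeq2 1.42.0, Python 3.11.15, numpy 2.4.6, pandas 2.3.3, scipy 1.17.1 and matplotlib 3.10.9.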

Additional observations from a re-analysis of the deposited data

How the results depend on the processing

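Across pseudocounts, filters, scalings and single columns left out, each of 735 values of single members moved by less than its counting error (the distance from the middle of its log2 interval to a bound), and no called member changed sign. The filter settings among them could not move a value, since a filter only keeps or drops a gene. The intervals are of the CPM ratio, whereas the values carry a pseudocount that shrinks differences of genes with few reads. For such genes the comparison therefore says little. Few counted reads limit MAP1LC3A, GABARAP and TFEB, and a filter of a mean of 50 reads dropped the first pair in both comparisons and TFEB with GPNA. With GPNA, the number of members called at least 1.2-fold higher, 1 as reported, was 3 at a pseudocount of 0.1 (14.5% of all genes were called higher), 2 at 0.5 (9.1%), 3 under TMM scaling (6.38%), 3 under DESeq2 size factors (6.35%) and 1 to 5 with single columns left out (6.32% to 6.83%). It was 5 without control column 2, where ATG14, ATG16L1, ATG16L2 and MAP1LC3A joined WIPI1, and 4 without GPNA column 1. The number at least 1.2-fold lower, 0 as reported, was 1 at either other pseudocount (TFEB; 14.7% and 9.68% of all genes) and 0 to 1 with single columns left out (7.52% to 7.8%), being 1 without control column 1 (ATG4A) and without GPNA column 2 (TFEB). The number at least 1.5-fold higher, 0 as reported, was 2 at a pseudocount of 0.1 (4.67%), 1 at 0.5 (0.823%), 1 under TMM (0.436%) and 1 under DESeq2 factors (0.43%), and 0 to 1 with single columns left out (0.394% to 0.477%), being 1 without GPNA column 2. With BenSer, the number at least 1.2-fold lower, 0 as reported, was 1 (GABARAP) at a pseudocount of 0.1 and 1 at 0.5 (25% and 19.8% of all genes). Between 10 and 11 members were called higher with BenSer with single columns left out (10.8% to 11.6%). At a pseudocount of 0.1 it was 11 (18.5%) and at 0.5 also 11 (13.8%). The number at least 1.5-fold higher with BenSer, 2 as reported, was 3 at a pseudocount of 0.1 (6.35%) and 2 at 0.5 (2.74%).

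Tests across all genes compare libraries only, and their counts at an adjusted p under 0.05 (Benjamini-Hochberg) depended strongly on the model. With GPNA, limma as planned gave 229 genes higher and 273 lower. With the replicate block it gave 3 and 0. A mean-variance trend, added after seeing those counts, gave 1244 and 2773, and 1247 and 2769 with the replicate block. On recovered reads, edgeR gave 1062 and 2534, edgeR with TMM (also added later) 1466 and 1696, and DESeq2 558 and 699. With BenSer, limma gave 2139 higher and 3076 lower, limma with the replicate block 1815 and 2678, the trended fit 2943 and 4132, edgeR 2926 and 4186, edgeR with TMM 3585 and 3429 and DESeq2 2146 and 2021, so the last pair called more genes higher than lower. Same-numbered columns did not deviate together (correlations of 0.017 to 0.023 over 13240 genes), so the numbers do not pair the libraries. The cause of these differences between models was not tested, and no result on a member rests on these tests.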
